A study of Mus musculus with 5 samples.

Results

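The mitochondrial respiratory chain genes were taken as every gene whose symbol begins with Nduf followed by a, b, c, s or v, is Sdha, Sdhb, Sdhc or Sdhd, or begins with Uqcr, with Cox and a digit of 4 to 8, or with Atp5. This choice by name found 91 of the 23779 genes with a named probe, and 89 of them were among the 17583 genes tested. Grouped by name, they comprised 38 complex I subunits, 8 complex I assembly factors (the Ndufaf genes), 4 complex II, 8 complex III, 16 complex IV and 17 ATP synthase genes. Of 96 protein-coding genes of the gene table that fit the same name rule, 5 had no named probe and were not analysed here: Cox5a, Cox5b, Ndufb1, Ndufb4b and Ndufb4c. The 13 subunits encoded by mitochondrial DNA had no named probe either, so all values below concern nuclear genes.

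Gene expression was measured on 5 single-colour Agilent arrays, each hybridised with RNA of 1 mouse gastric organoid sample, a self-organising culture of stomach epithelium. The tumour-derived samples were 4 organoid cultures grown from subcutaneous tumours. Of these, 2 had Trp53 loss and a hairpin against Cdh1 (shCdh1 #1 and #2, called hairpin 1 and hairpin 2), 1 had Trp53 loss and Apc580D, and 1 had Trp53 loss and Pik3caH1047R. The control was a culture from Trp53 flox/flox mice that carried the pLKO.1 vector with a luciferase hairpin (shLuc), sampled before inoculation. All were labelled stomach and female and were grown with EGF, R-spondin1, Noggin, Y27632, Jagged-1 and CHIR-99021. The age and strain of the mice and the host of the tumours are not given in the labels. A second lesion, Trp53 loss and passage as a tumour therefore differ together from the control, and they cannot be told apart. The control is 1 culture, and only shCdh1 had more than 1 array.

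The respiratory chain moves electrons from NADH and succinate to oxygen through complexes I to IV of the inner mitochondrial membrane. Complexes I, III and IV pump protons, and ATP synthase uses the resulting gradient to make ATP. In the stomach, the acid-secreting parietal cell is known for its dense mitochondria. Several complex IV subunits exist as a general form and a form restricted to heart and muscle, testis or lung, and transcription of the nuclear genes is known to depend on factors such as NRF1, GABP and the oestrogen-related receptors (ERR).

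Levels are given as log2 signal relative to the 75th percentile of the same array, so that a level of 0 is that percentile. Differences are log2 values of a tumour-derived array, or of the mean of the 4, minus the control. Per array, 61.8% to 65.3% of spots were well above background. The labels were checked first. Cdh1, the epithelial adhesion gene, was at 0.07 and 0.26 with hairpins 1 and 2, at 4.48 in Apc580D and at 4.58 in Pik3caH1047R, against 4.39 in the control. Trp53 was between −5.86 and −4.86 on the 4 tumour-derived arrays, against 0.85 in the control. Apc was between −3.36 and −2.89 on all 5 arrays. Pik3ca was at 2.23 in Pik3caH1047R and between 1.45 and 2.97 on the other tumour-derived arrays, against 3.40 in the control. The Apc580D and Pik3caH1047R labels were thus not checked by these levels. The Pik3caH1047R array went against its label of female: Xist was at −8.14 there and not well above background, whereas the Y-linked Eif2s3y (1.35), Kdm5d (−1.86), Ddx3y (−2.41) and Uty (−3.15) were well above background on that array alone. Results are therefore also given without it. Of 9 genes of the gastric epithelium, all 9 were well above background on all 5 arrays, with a median difference of −0.07. The 7 parietal cell markers had a median difference of 0.45. Their summed level, the log2 of the sum of unlogged levels, was 4.16 to 4.44 on the tumour-derived arrays, against 4.47 in the control. Such a sum mostly follows the brightest genes of a list, takes in genes not tested, and can go against the median. Of these 7, 5 were well above background on all 5 arrays. In these bulk samples, fewer cells of a type and less RNA per cell cannot be told apart.

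Most respiratory chain genes were slightly lower in the tumour-derived organoids than in the control, by amounts within the error of the single-gene test. The tumour mean was below the control for 68 of 89 members and above it for 21, and the median difference was −0.16, a level of 0.895 times the control. Over all 17583 genes tested the tumour mean was below the control for 7836 (44.6%) and above it for 9747, and the median difference was 0.06. For 81 of the 89 members the mean lay within 0.5 of the control. The median standard error of a member's difference was 0.25 and 28 members differed by more than their own standard error. In limma 0 of 89 members passed an adjusted p of 0.05, against 0.119% of all genes tested, and the lowest adjusted p of a member was 0.252. An unadjusted p below 0.05 was reached by 3 members (3.37%), Cox6a2, Cox6b2 and Cox7a1, against 13.3% of all genes. A difference of at least 2-fold was seen in 4 members (4.49%), Ndufa4l2, Cox6a2, Cox6b2 and Cox7b2, against 16.9% of all genes. Of these, Ndufa4l2 in the control and Cox7b2 in Pik3caH1047R were not well above background, and without Pik3caH1047R the Cox7b2 difference of −0.87 was under 2-fold.

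The direction was more uniform than the size. All 4 tumour-derived arrays lay below the control for 38 of 89 members (42.7%), against 24.4% of all genes tested. All 4 lay above it for 5 members (5.62%), Ndufa4l2, Ndufa7, Cox4i2, Cox6a2 and Cox7a1, against 30.2% of all genes. Without Apc580D, 15 members (16.9%) lay above the control on the remaining 3 arrays, against 37.5% of all genes, and without any other array it was 5 or 6 members. Without Pik3caH1047R the remaining 3 arrays lay below the control for 40 members (44.9%, against 27.1% of all genes). Without hairpin 1 the count was 55 (61.8%, against 28.5%), without hairpin 2 it was 39 (43.8%, against 28.0%), and without Apc580D it was 38 (42.7%, against 27.5%). The 4 differences of a gene share the same control array, so an error of that array enters all of them.

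The arrays differed among themselves, and those of Apc580D and Pik3caH1047R were on another slide than the hairpins and the control. In Apc580D 82 of 89 members were below the control (92.1%, against 50.7% of all genes), with a median of −0.27 while that of all genes was −0.01. With hairpin 2 it was 67 of 89 (75.3%, against 43.8%), with a median of −0.19 where all genes stood at 0.09. In Pik3caH1047R it was 61 of 89 (68.5%, against 45.7%), with a median of −0.11 where all genes stood at 0.06. With hairpin 1 it was 42 of 89 (47.2%, against 43.8%), with a median of 0.01 where all genes stood at 0.08. Among the 4 tumour-derived arrays, Apc580D held the lowest value for 59 members (66.3%, against 31.3% of all genes) and hairpin 1 for 0 of 89 (against 22.3%). The hairpin arrays are replicates of 1 genotype. Hairpin 2 was below hairpin 1 for 73 of 89 members (82.0%, against 50.8% of all genes). The median difference of the members was −0.19, where all genes stood at −0.01. That spread of the members was at least as wide as their median difference from the control.

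**Figure D1:**
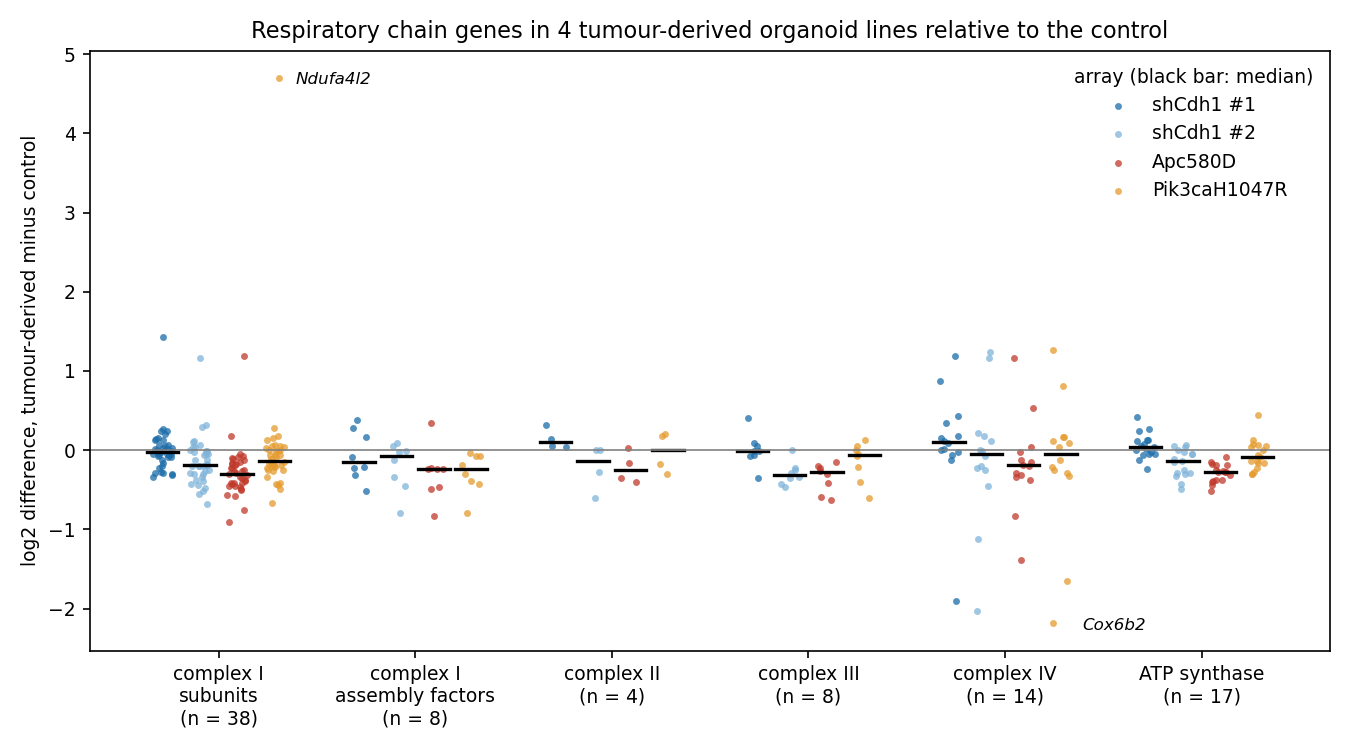
Log2 difference from the control (y axis) of each of the 89 members tested, by complex (x axis) and tumour-derived array (colour), with black bars at the medians. The medians of Apc580D lie below 0 in all 6 groups, and the points farthest from 0 are Ndufa4l2 in Pik3caH1047R and Cox6b2.

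Complex I is the NADH dehydrogenase, the largest complex of the chain and its main entry point for electrons. Of its 38 subunit genes 32 had a tumour mean below the control and 0 passed the test. The 38 were grouped by name and include Ndufa4, now known to belong to complex IV, and its paralogue Ndufa4l2. The median difference of the subunit genes was −0.15, and by array it was −0.03 with hairpin 1, −0.19 with hairpin 2, −0.29 in Apc580D and −0.13 in Pik3caH1047R. Apart from Ndufa4l2, described further on, the widest difference was that of Ndufa5, a subunit of the matrix arm. Ndufa5 had levels of 5.82 with hairpin 1, 5.68 with hairpin 2, 5.25 in Apc580D and 5.50 in Pik3caH1047R, against 6.16 in the control. All 4 tumour-derived levels were below the control, Apc580D the farthest (difference −0.60 ± 0.29 (SE), limma adjusted p = 0.455). Ndufa11, a membrane-arm subunit, had 2.40, 2.30, 1.93 and 2.48 with hairpins 1 and 2, in Apc580D and in Pik3caH1047R, against 2.69 in the control. Again all 4 levels were below the 1 control array, as for 24.4% of all genes tested, and Apc580D was lowest (−0.41 ± 0.29, adjusted p = 0.59).

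Other subunit genes differed less from the control. The membrane-arm subunit Ndufb4 had 5.73, 5.67, 5.62 and 5.73 with hairpins 1 and 2, in Apc580D and in Pik3caH1047R, against 5.80 in the control, a difference of −0.11 ± 0.20. Ndufa3, another membrane-arm subunit, had 5.80, 5.18, 5.60 and 5.78, against 5.86 in the control, with hairpin 2 apart from the other tumour-derived arrays. Ndufa7 was the only subunit gene besides Ndufa4l2 that was above the control on all 4 arrays, at 6.15, 6.20, 6.06 and 5.94, against 5.88 in the control (0.21 ± 0.22, adjusted p = 0.726). Ndufa13, also known as GRIM-19, had 6.95, 7.18, 6.84 and 7.07, against 6.89 in the control. Its tumour-derived levels lay on both sides of the control, and its difference of 0.12 turned negative under array median scaling. Of the catalytic core, Ndufv1, which binds NADH, differed by −0.30, Ndufs1, which carries iron-sulphur clusters, by −0.19, and Ndufs8, an iron-sulphur subunit near the quinone site, by 0.03. These 3 genes were chosen after their values were seen.

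The 8 Ndufaf assembly factors, which build complex I and do not stay in it, had a median difference of −0.22, with 6 of 8 below the control and 0 passing the test. Ndufaf8, known from human cells to stabilise Ndufaf5, had 0.17 and 0.24 with hairpins 1 and 2, −0.15 in Apc580D and 0.27 in Pik3caH1047R, against 0.69 in the control. All 4 were lower, Apc580D the most (−0.56 ± 0.26, adjusted p = 0.433). Ndufaf4 had 0.32, −0.27, 0.30 and −0.27 in the same order of arrays, against 0.53 in the control, so that hairpin 2 and Pik3caH1047R were low and hairpin 1 and Apc580D nearer to the control (−0.51 ± 0.35). Ndufaf7, an arginine methyltransferase, had 1.96, 2.06, 1.70 and 1.88, against 2.18 in the control. Ndufaf1, part of the intermediate assembly complex, had 1.68, 1.65, 1.76 and 1.81, against 1.99 in the control. Both were lower on all 4 arrays. Ndufaf3 had 0.93, 1.00, 0.56 and 0.95, against 1.02 in the control, with Apc580D alone far below. A further 11 complex I assembly genes without an Ndufaf name had a median difference of −0.31, 8 being lower and 3 higher. Among them Lyrm2 was lowest, at −0.54, −0.71, −0.49 and −1.24, against 0.50 in the control (−1.25 ± 0.36, adjusted p = 0.293).

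Complex II, succinate dehydrogenase, links the citric acid cycle to the chain and is encoded by nuclear genes alone. Sdha, the flavoprotein, had 4.69 and 4.37 with hairpins 1 and 2, 4.40 in Apc580D and 4.57 in Pik3caH1047R, against 4.37 in the control. Hairpin 2 equalled the control and the other 3 arrays were above it, although a second Sdha probe gave a difference of −0.10 where the probe used gave 0.14. Sdhb, the iron-sulphur subunit, had 5.91, 5.26, 5.45 and 5.55, against 5.85 in the control, with only hairpin 1 above the control (−0.31 ± 0.31, adjusted p = 0.707). With a second Sdhb probe the mean difference was −0.46, and hairpin 1 was also below the control (−0.04). The membrane anchors were lower or near the control. Sdhc had 4.32, 4.003, 3.93 and 4.10, against 4.28 in the control. Sdhd had 5.78, 5.64, 5.47 and 5.82, against 5.64 in the control. Their tumour-derived levels overlapped the control. Over the 4 genes the median difference was −0.07 and 0 passed. The 4 complex II assembly genes had a median of 0.00, with 2 lower and 2 higher.

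Complex III passes electrons from ubiquinol to cytochrome c. Of its 8 genes 7 had a tumour mean below the control, the median difference was −0.17 and 0 passed. By array the median was −0.01 with hairpin 1, −0.31 with hairpin 2, −0.28 in Apc580D and −0.06 in Pik3caH1047R. Uqcrb, the ubiquinone-binding accessory subunit, had 6.12, 6.04, 5.84 and 6.07 with hairpins 1 and 2, in Apc580D and in Pik3caH1047R, against 6.47 in the control. All 4 were lower (−0.45 ± 0.22, adjusted p = 0.453). A second Uqcrb probe gave a smaller mean difference of −0.22, with −0.03 for hairpin 1. Uqcr11, a small accessory subunit, had 6.23, 5.83, 5.71 and 5.70, against 6.30 in the control, with hairpin 1 nearest to the control (−0.43 ± 0.29, adjusted p = 0.574). The core protein gene Uqcrc1 had 5.34, 5.05, 4.98 and 5.32, against 5.39 in the control, and the hinge protein gene Uqcrh had 7.10, 6.76, 6.85 and 6.91, against 7.11 in the control. Both were below the control on every array, by 0.01 in the narrowest case. Uqcrq had 7.55, 7.15, 6.85 and 7.27, against 7.14 in the control, and stood on both sides of it. The 6 complex III assembly genes had a median of −0.34, 5 being lower and 1 higher, with Uqcc3 at −0.87 ± 0.30 (adjusted p = 0.346).

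ATP synthase consists of a catalytic F1 part and a membrane Fo part. The 17 genes had a median difference of −0.16, with 13 below the control and 0 passing. In Apc580D all 17 of 17 were below the control with a median of −0.27, while hairpin 1 had a median of 0.04. In F1, the alpha subunit gene Atp5a1 had 7.01, 6.81, 6.76 and 6.90 with hairpins 1 and 2, in Apc580D and in Pik3caH1047R, against 7.07 in the control. The gamma subunit gene Atp5c1 had 6.91, 6.90, 6.76 and 6.95, against 7.04 in the control. Both were lower on all 4 arrays by small amounts. A second Atp5a1 probe, however, was above the control with hairpin 1 (0.28), with a mean difference of −0.14. The beta subunit gene Atp5b had 7.82, 7.51, 7.41 and 7.60, against 7.56 in the control, and overlapped it; its mean difference of 0.02 kept its sign under 8 of 14 settings. Of the genes for the peripheral stalk and the c ring, Atp5j had 5.67, 5.20, 5.32 and 5.39, against 5.69 in the control. Atp5g1 had 6.25, 5.88, 5.79 and 6.14, against 6.31 in the control. Both were below the control on all 4 arrays, hairpin 1 by the least. Atp5g2, which encodes the same mature c subunit as Atp5g1, had 7.16, 7.02, 6.86 and 7.48, against 7.04 in the control, with Pik3caH1047R high. Atpif1, the inhibitor of ATP synthase, which the name rule does not take in, differed by −0.03.

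Complex IV, cytochrome c oxidase, held 3 of the 4 members whose measured tumour mean differed at least 2-fold from the control. These were 21.4% of the complex IV genes tested, near the share of 16.9% over all genes. The 14 complex IV genes tested had a median difference of −0.06, with 8 lower and 6 higher, and 0 passed. Cox8b and Cox8c, the muscle and testis forms of subunit 8, were not well above background on any array. The general form Cox6b1 had 3.89, 3.50, 3.57 and 3.70 with hairpins 1 and 2, in Apc580D and in Pik3caH1047R, against 3.95 in the control, lower on all 4 arrays. Cox6b2, the testis form of the same subunit, had −2.08, −2.22, −1.01 and −2.37, against −0.18 in the control. All 4 were lower, Apc580D the least, and the tumour mean was 3.33-fold lower (−1.74 ± 0.57, unadjusted p = 0.029, limma adjusted p = 0.329). By array it was 3.73-fold and 4.10-fold lower with hairpins 1 and 2, 1.78-fold lower in Apc580D and 4.55-fold lower in Pik3caH1047R. Cox7b2, another testis form, had −4.41, −5.41, −5.67 and −5.94, against −4.29 in the control. Pik3caH1047R was not well above background, and hairpin 1 was near the control (−1.07 ± 0.61, adjusted p = 0.518). The difference was −0.87 without Pik3caH1047R, −0.66 when a floor was set under dim signals and −0.33 with normexp background correction. Of 6 germ cell markers, 5 were tested. All 5 were higher in the tumour mean, 1 of them on all 4 arrays (30.2% of all genes were above on all 4). The summed level of the list was −2.16 to −1.64 on the tumour-derived arrays, against −2.57 in the control. The part of germ cells in the Cox6b2 and Cox7b2 differences was not tested.

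Cox6a2 and Cox7a1 are the heart and muscle forms of their subunits. Cox6a2 had −3.74, −3.77, −3.78 and −4.13 with hairpins 1 and 2, in Apc580D and in Pik3caH1047R, against −4.94 in the control. All 4 were higher, Pik3caH1047R the least (1.08 ± 0.25, unadjusted p = 0.0079, adjusted p = 0.252). With normexp background correction the difference was 0.40. Cox7a1 had 0.86, 1.22, 0.51 and 1.25, against −0.02 in the control. All 4 were higher, by 1.44-fold in Apc580D to 2.41-fold in Pik3caH1047R (0.98 ± 0.36, unadjusted p = 0.042, adjusted p = 0.36). The general form Cox6a1 had 8.66, 8.34, 8.21 and 8.32, against 8.23 in the control, with Apc580D just below it (0.15 ± 0.26). Of 8 muscle and adipocyte markers 6 were tested, 5 of which were higher in the tumour mean. Of the 6, 2 were higher on all 4 arrays and 3 were well above background on all 5. The summed level of the list was 1.39 to 2.38 on the tumour-derived arrays, against 1.22 in the control. The part of these cell types in the Cox6a2 and Cox7a1 differences was not tested. Cox7a2l, which takes part in joining complexes III and IV into supercomplexes, had 6.76, 6.60, 6.30 and 6.59, against 6.42 in the control, and overlapped it. Cox4i2, the lung form of subunit 4 that is known to respond to low oxygen, had −0.62, −0.59, −0.76 and −0.69, against −0.81 in the control (0.14 ± 0.20, adjusted p = 0.805), and turned slightly negative under array median scaling.

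Ndufa4l2, a paralogue of Ndufa4 that is known to be induced by the hypoxia factor HIF-1, showed the widest spread. Its level was −5.13 with hairpin 1, −5.41 with hairpin 2, −5.38 in Apc580D and −1.87 in Pik3caH1047R, against −6.57 in the control, where it was not well above background. Pik3caH1047R alone was high and the other tumour-derived arrays lay within 0.27 of each other. The lowest level well above background in the control was −6.55, which is not a detection limit, so folds set against it are not firm bounds. In Pik3caH1047R, for example, Cox7b2 at −5.94 was not well above background, although the lowest such level there was −6.94. Against −6.55, Ndufa4l2 was 25.6-fold higher in Pik3caH1047R, 2.66-fold and 2.20-fold higher with hairpins 1 and 2, and 2.25-fold higher in Apc580D. None of this passed over all genes: the limma adjusted p was 0.594 for the 4 tumour-derived arrays, 0.298 for Pik3caH1047R, 0.489 for shCdh1 and 0.536 for Apc580D. The difference of shCdh1 from the mean of Apc580D and Pik3caH1047R was −1.65 ± 0.25 (adjusted p = 0.523). Ndufa4, now known to belong to complex IV, had 5.03, 5.11, 4.88 and 4.85, against 5.04 in the control.

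**Figure D2:**
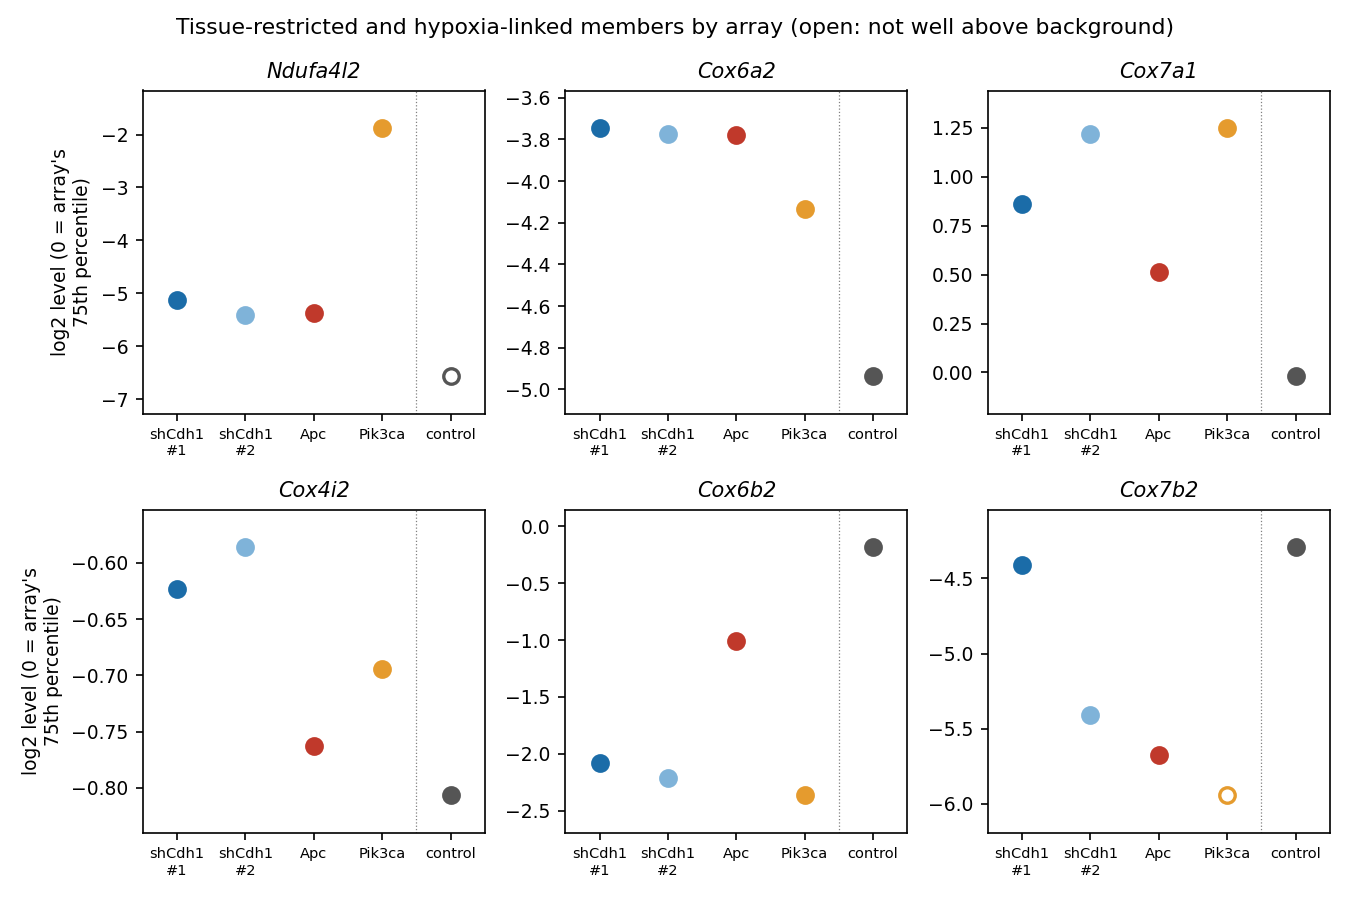
Log2 level relative to the array's 75th percentile (y axis, a separate scale for each gene) of 6 members on the 4 tumour-derived arrays and the control (x axis), 1 point per array, open where the probe was not well above background. Ndufa4l2 stands at −1.87 in Pik3caH1047R and at −6.57 in the control, and all 4 tumour-derived points lie above the control for Cox6a2 and Cox7a1 and below it for Cox6b2.

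A list of genes known to be induced by hypoxia also had its highest median in Pik3caH1047R. Of 12 such genes, 11 had a tumour mean above the control, 8 of these on all 4 arrays (30.2% of all genes were above on all 4), and 0 passed the test, against 0.119% of all genes. Their median difference was 1.11 in Pik3caH1047R, 0.79 and 0.44 with hairpins 1 and 2, and 0.07 in Apc580D. Vegfa, the angiogenic factor, had 5.76 and 5.02 with hairpins 1 and 2, 4.67 in Apc580D and 6.04 in Pik3caH1047R, against 3.13 in the control (2.24 ± 0.59, adjusted p = 0.275). Ankrd37, a direct HIF-1 target, differed by 1.13 ± 0.66, and Ddit4, an inhibitor of mTOR signalling, by 1.06 ± 0.40. The 17 glycolysis genes were higher in 15 and lower in 2 cases (44.6% of all genes tested were lower), with a median of 0.15. Only 5 of the 17 were above the control on all 4 arrays, where 30.2% of all genes were. By array the median was 0.33, 0.13, −0.10 and 0.28 with hairpins 1 and 2, in Apc580D and in Pik3caH1047R. The lactate exporter gene Slc16a3 differed by 0.77 ± 0.47 and the glucose transporter gene Slc2a1 by 0.51 ± 0.51. Whether oxygen supply in the cultures took part in the Ndufa4l2 level was not tested.

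Most electron carrier and complex IV assembly genes, which the name rule does not take in, also had tumour means below the control. Of all genes tested 44.6% did. Of 16 electron carrier genes tested, which make or use ubiquinone, cytochrome c or electron-transferring flavoprotein, 14 were lower and 2 higher, with a median of −0.31 and 0 passing. Coq4, required for ubiquinone synthesis, had 1.05, 0.51, 0.06 and 0.41 with hairpins 1 and 2, in Apc580D and in Pik3caH1047R, against 1.29 in the control (−0.78 ± 0.41, adjusted p = 0.479). Etfb, the beta subunit of electron-transferring flavoprotein, had 5.40, 4.85, 5.07 and 5.10, against 5.77 in the control (−0.66 ± 0.28, adjusted p = 0.398). Both were lower on all 4 arrays. Cytochrome c itself, Cycs, had 5.96, 5.32, 5.36 and 5.75, against 5.78 in the control, and Cyc1, the cytochrome c1 of complex III, had 5.55, 4.85, 5.19 and 5.65, against 5.51 in the control. Both overlapped the control, and both were lowest with hairpin 2. Among 23 complex IV assembly genes 14 were lower and 9 higher (median −0.13), nearer to the share over all genes than the electron carriers. Sco2, a copper chaperone and known p53 target, had 1.28, 0.90, 1.22 and 1.23, against 2.04 in the control (−0.88 ± 0.24, adjusted p = 0.285), and Coa4 differed by −0.89 ± 0.31. Both were lower on all 4 arrays. The 4 complex V assembly genes had a median of −0.11.

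Of 17 regulators of mitochondrial biogenesis tested, 12 were lower and 5 higher (44.6% of all genes tested were lower), with a median of −0.15 and 0 passing. Nfe2l2, the antioxidant transcription factor also called NRF2, had 3.51, 3.95, 3.71 and 3.62 with hairpins 1 and 2, in Apc580D and in Pik3caH1047R, against 5.07 in the control. All 4 were lower (−1.38 ± 0.25, adjusted p = 0.222). Ppara, a nuclear receptor of fatty acid oxidation, had −3.85, −3.77, −3.50 and −5.03, against −2.59 in the control (−1.45 ± 0.62), and Tfb2m, a mitochondrial transcription factor, had −0.32, 0.29, 0.16 and −0.19, against 0.96 in the control (−0.98 ± 0.32). Both were lower on every array. Yy1 was above the control on every array, at 3.34, 3.47, 3.07 and 3.40, against 2.57 in the control (0.75 ± 0.25, adjusted p = 0.329). The coactivator gene Ppargc1a had 1.49, 1.04, 1.06 and 0.68, against 1.07 in the control, and Tfam differed by −0.15, Nrf1 by 0.20, Gabpa by −0.02 and Esrra by −0.40.

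**Figure D3:**
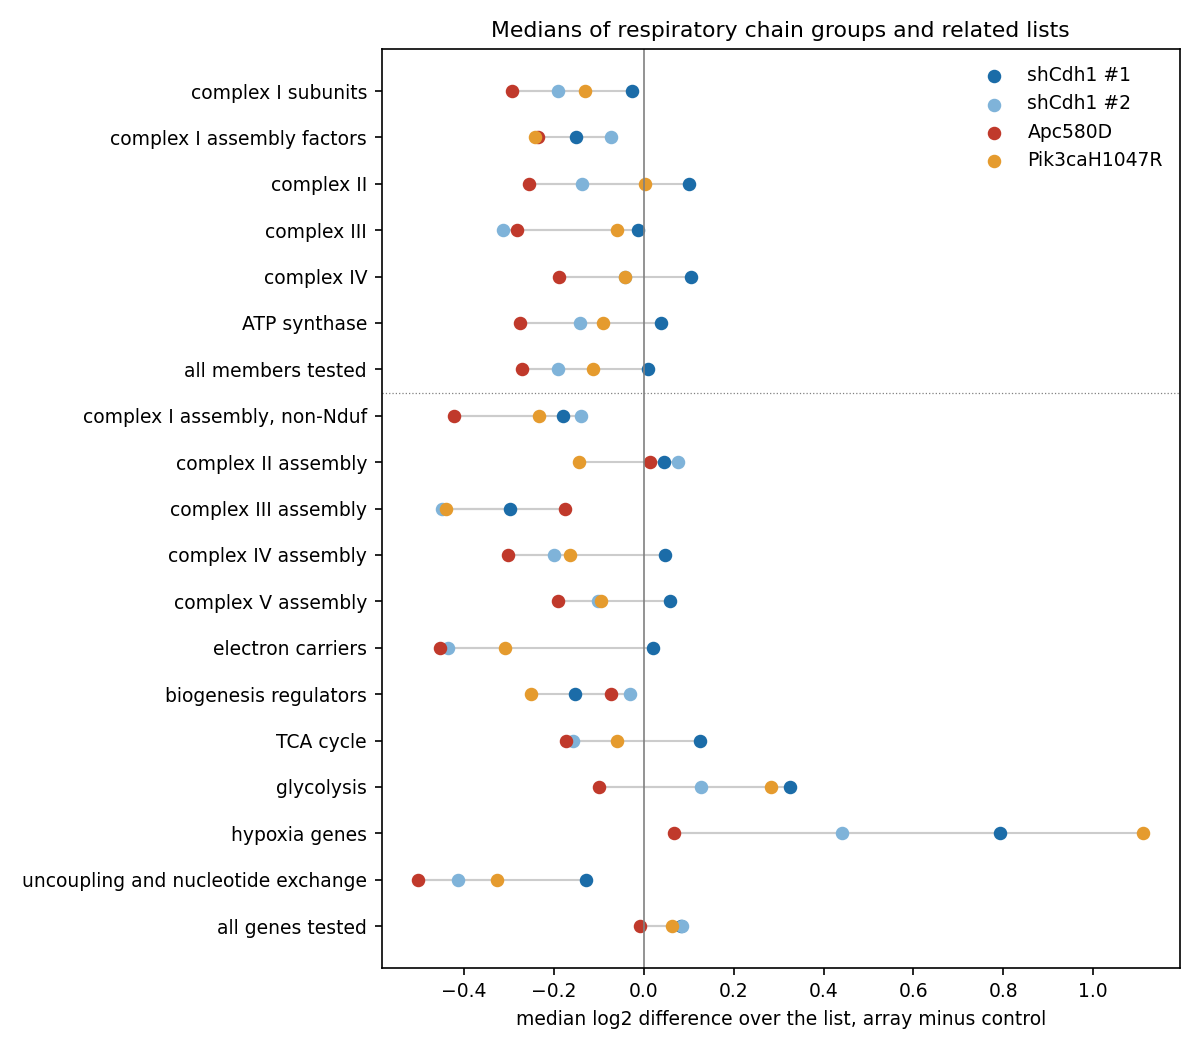
Median log2 difference from the control (x axis) over each group of respiratory chain genes (above the dotted line) and each related list (below it), 1 point per tumour-derived array. All groups of members have their highest median with hairpin 1 except the complex I assembly factors, and the hypoxia list spans 0.07 in Apc580D to 1.11 in Pik3caH1047R.

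The shCdh1 arrays were also set against the arrays of the other tumour genotypes. The shCdh1 mean was above the mean of Apc580D and Pik3caH1047R for 79 of 89 members with a median difference of 0.12, where 9540 of all 17583 genes were above and the median was 0.03. In limma 0 members passed, as did 0% of all genes, and 1 member, Ndufa4l2, had an unadjusted p below 0.05, against 6.03% of all genes. Slide and genotype cannot be told apart here. Each genotype against the control likewise gave 0 members and 0% of all genes in limma. Unadjusted p-values below 0.05 were reached by 4 members for shCdh1, 2 for Apc580D and 3 for Pik3caH1047R, against 9.74%, 9.02% and 11.5% of all genes. These comparisons share the control array. With slide as a block, which leaves shCdh1 against the control, the members' median was −0.10, against 0.09 over all genes.

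The promoters of the members were examined for the letters of 8 motifs, on both strands, in RefSeq windows of 300 bases (250 before and 50 after the start, GRCm38.p6). The table held 79 promoters of 74 members. The NRF1 core GCATGCG was found in 13 of them (16.5%), against 3.58% of all 32851 promoters, the ETS/GABP motif CCGGAAG in 19 (24.1%, against 8.86%), the YY1 motif AAGATGG in 12 (15.2%, against 6.34%) and the ERR motif AAGGTCA in 8 (10.1%, against 4.72%). The CREB/ATF motif TGACGT was in 10 (12.7%, against 7.51%), the SP motif GGGCGG in 35 (44.3%, against 35.7%), the NF-Y motif CCAAT in 35 (44.3%, against 37.4%) and the HIF core ACGTG in 18 (22.8%, against 19.6%). The last can overlap TGACGT. A match is a description of letters and not a bound site. 4 promoters are shown, the first pair because Cox7a1 and Cox6b2 had unadjusted p-values below 0.05 in opposite directions, the other pair because Atp5j and Uqcr11 were lower on all 4 arrays and have a window with NRF1 and ETS/GABP motifs. The table held a second Atp5j window, at chr16:84835576-84835875, with an SP match and none of the NRF1, ETS/GABP or YY1 letters, which is not shown. Capitals mark motif matches on either strand, 5′ to 3′ along the gene's strand.
Cox7a1, chr7:30183921-30184220, plus strand: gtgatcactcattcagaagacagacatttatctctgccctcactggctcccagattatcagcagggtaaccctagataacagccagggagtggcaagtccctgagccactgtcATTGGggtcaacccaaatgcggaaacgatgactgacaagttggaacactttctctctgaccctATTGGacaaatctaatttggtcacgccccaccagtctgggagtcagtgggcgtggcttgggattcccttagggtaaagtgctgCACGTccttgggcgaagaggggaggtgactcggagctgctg
Cox6b2, chr7:4753045-4753344, minus strand: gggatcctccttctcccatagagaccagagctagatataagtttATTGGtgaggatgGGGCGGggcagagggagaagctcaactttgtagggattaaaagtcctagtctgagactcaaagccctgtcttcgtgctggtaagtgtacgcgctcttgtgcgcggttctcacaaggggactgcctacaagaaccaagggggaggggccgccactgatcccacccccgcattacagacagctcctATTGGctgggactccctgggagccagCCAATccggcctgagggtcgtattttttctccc
Atp5j, chr16:84834927-84835226, minus strand: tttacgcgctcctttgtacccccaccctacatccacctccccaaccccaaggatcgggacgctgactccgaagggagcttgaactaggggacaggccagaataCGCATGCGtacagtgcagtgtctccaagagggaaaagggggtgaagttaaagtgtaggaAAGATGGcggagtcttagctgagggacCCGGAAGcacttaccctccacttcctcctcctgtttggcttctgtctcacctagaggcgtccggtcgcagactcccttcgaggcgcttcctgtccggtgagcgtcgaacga
Uqcr11, chr10:80406772-80407071, minus strand: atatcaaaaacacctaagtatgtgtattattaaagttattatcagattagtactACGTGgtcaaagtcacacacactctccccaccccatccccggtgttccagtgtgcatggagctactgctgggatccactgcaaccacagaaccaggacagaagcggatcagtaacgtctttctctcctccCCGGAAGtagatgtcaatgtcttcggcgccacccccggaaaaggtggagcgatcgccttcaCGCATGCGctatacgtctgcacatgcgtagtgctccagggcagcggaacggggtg
The windows shown for Atp5j and Uqcr11 each hold the NRF1 core on both strands, as the palindrome CGCATGCG, and 1 ETS/GABP motif, and that shown for Atp5j also holds the YY1 motif. The windows of Cox7a1 and Cox6b2 hold none of the NRF1, ETS/GABP, YY1 or ERR letters, and have 2 and 3 NF-Y motifs. The pairs are not a comparison, because Atp5j and Uqcr11 were picked for their motifs. Most member promoters also lacked the NRF1 core (13 of 79 held it) and the ETS/GABP motif (19 of 79).

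**Figure D4:**
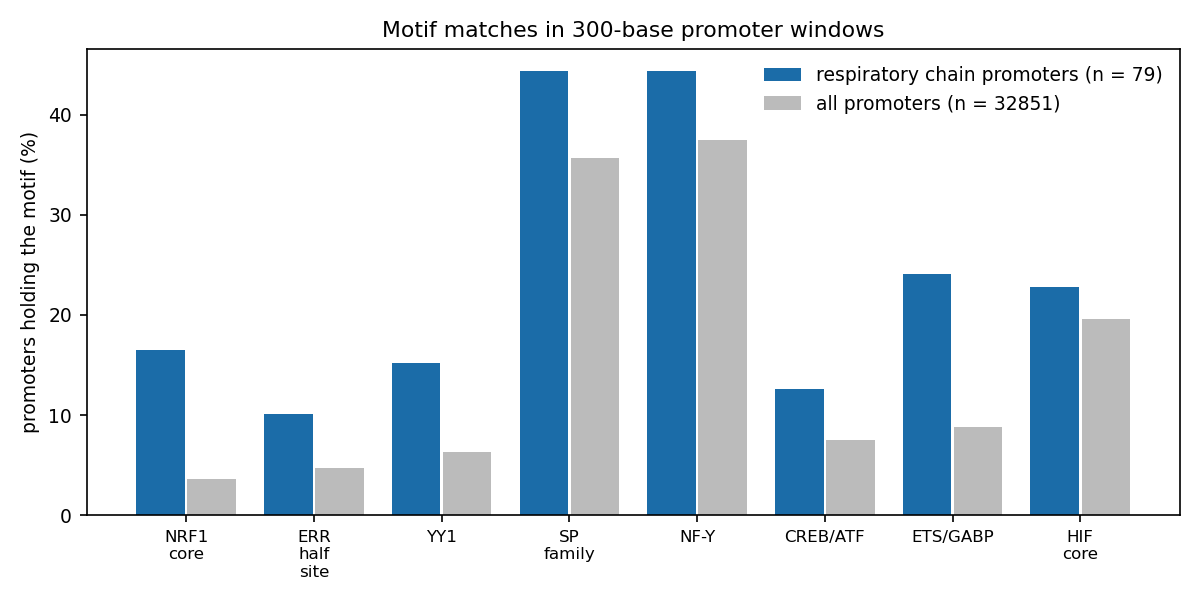
Share of promoters that hold each of 8 motifs (y axis, percent, bars from 0) among 79 promoters of respiratory chain genes (blue) and all 32851 promoters (grey). The NRF1 core stands at 16.5% against 3.58% and the ETS/GABP motif at 24.1% against 8.86%.

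Where members had more than 1 probe, the probes mostly gave like values. Of 25 such members the median spread between probes was 0.10 on the log2 scale, and 5 members had probes of opposite sign, Atp5b and Sdha among them. Ndufab1, the mitochondrial acyl carrier protein, differed by −0.23 with the probe used and by −1.06 with the other, and Ndufb8, a membrane-arm subunit, by −0.31 and −0.98. Both of their probes were lower on all 4 arrays. These members were chosen after their values were seen.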

How the data were processed

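Per the labels' protocols, column-purified RNA was labelled with Cy3 for 5 single-colour Agilent arrays; spot values came from Agilent Feature Extraction 11.0.1.1, per the submitters' processing notes. Per the file headers, the deposited processed signal is an intensity already background-subtracted and detrended. The authors' value table holds log2 values whose differences between arrays matched the 75th-percentile scaling (slope 1, correlation 1 over 53335 probes), but what was subtracted per probe remains unknown. Its columns have medians of −0.08 in Apc580D, 0.02 in Pik3caH1047R, 0.07 and 0.03 with hairpins 1 and 2, and −0.06 in the control.

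From the log2 processed signal each array's 75th percentile over 59305 non-control spots was subtracted, without outlier spots (78 to 114 per array; 0 were saturated). The percentile was 24 to 27.9 times the median background, and precision is limited by how few arrays there are. Repeated spots were averaged, 32 of 56605 probes lacked a usable value, and 34549 were named through their accession and RefSeq (GRCm38.p6). A gene was represented by its probe with the highest mean, and tested if any probe was well above background on at least 1 array.

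limma 3.58.1 in R 4.3.3 (lmFit, eBayes, two-sided, Benjamini-Hochberg over 17583 genes) compared the 4 tumour-derived arrays with the control (3 residual degrees of freedom, the control assumed to vary like the tumours), and genotypes with the control or each other (1 residual degree of freedom, from the hairpins). Errors after ± are standard errors. The labels give each shCdh1 array its own hairpin and name no repeat of either. The p-values therefore measure only the spread between these samples, which may be partly technical. The fit was tested on simulated data. The folds of Ndufa4l2 are set against the lowest signal well above background in the control.

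The members and lists were chosen with earlier results of these data known. Named members are, per group, the 2 largest and 2 smallest differences with all 4 arrays on one side, the brightest probe, the widest range, all complex II genes, and tissue-restricted, hypoxia-linked or regulatory genes. Of other lists up to 3 of the largest differences, and any electron carrier or biogenesis regulator, could be named. Alternatives were other scalings and normexp on median signals, filters on dim genes, a floor, averaged probes, the authors' table, slide as a block and leaving out arrays; member counts without each array were added after seeing the data.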

Additional observations from a re-analysis of the deposited data

Results flagged for a closer look

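Among the 4 tumour-derived arrays, 3 members named in the report had 1 array far from the other 3, with a gap to the nearest of them that exceeded Dixon's 95% critical value as a share of the range. Ndufa4l2 was at −1.87 in Pik3caH1047R and between −5.41 and −5.13 on the other arrays (gap over range 0.923). Cox6a2 was at −4.13 in Pik3caH1047R and between −3.78 and −3.74 on the others (0.913). Ndufaf3 was at 0.56 in Apc580D and between 0.93 and 1.00 on the others (0.847). In all, 5 of 89 members met this criterion, which chance meets in about 1 of 20 groups of samples. The arrays are of different genotypes, and the Pik3caH1047R array is the one whose Xist and Y-linked levels went against its label; the part of either in these values was not tested.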

How the results depend on the processing

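In limma 0 members passed in the 54 combinations of comparison and setting that were fitted, with 87 to 91 members tested. The tumour-derived arrays against the control gave 21 genes over all. That count was 48 with normexp, 63 with dim signals raised to a floor, 7 where every array had to be well above background and 0 with slide as a block, and ranged from 0 to 19 when 1 array was left out (0 without hairpin 1, hairpin 2 or Pik3caH1047R, with 2218, 2032 and 1852 genes at an unadjusted p below 0.05). Array median scaling lowered the median of all genes to −0.08 and the medians of all members to −0.30, of complex I subunits to −0.30, of the assembly factors to −0.36, of complex IV to −0.21 and of ATP synthase to −0.30; relative to the median of all genes the members stood at −0.22 under both scalings, and between −0.25 and −0.18 over all settings. With slide as a block the assembly factors' median was −0.12, and the complex IV median ranged up to 0.03, the only group median above 0 in any setting. Without Pik3caH1047R the members' median was −0.17, without Apc580D −0.09, without hairpin 1 −0.18 and without hairpin 2 −0.14. Of the 35 named members tested, Ndufa13, Sdha, Sdhd, Uqcrq, Atp5b, Atp5g2, Cox4i2 and Cox7a2l changed sign under some setting, none of them past the threshold; Ndufa4l2 ranged from 0.78 (normexp) to 2.44. No paired analysis was possible because the control is 1 culture and the labels pair no arrays. Genotype comparisons with slide as a block, or without either hairpin, could not be tested, and shCdh1 against the other tumours without Apc580D or Pik3caH1047R was not run.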

Other observations

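Other mitochondrial genes were measured on the same arrays. Of 18 genes of the citric acid cycle and its entry steps, 11 were lower and 7 higher in the tumour mean. Of all genes tested 44.6% were lower. The median of the 18 was −0.08, with 0 passing in limma. Pcx, the pyruvate carboxylase that refills the cycle, had 3.72 and 3.27 with hairpins 1 and 2, 3.14 in Apc580D and 2.82 in Pik3caH1047R, against 4.47 in the control, lower on all 4 arrays (−1.23 ± 0.38, adjusted p = 0.308). Suclg1, a subunit of succinyl-CoA ligase, differed by −0.58 ± 0.29. Of 5 genes for uncoupling proteins and for nucleotide and phosphate carriers tested, 4 were lower and 1 higher (median −0.31). Ucp2 had 3.10, 2.55, 2.48 and 2.86 in the same order of arrays, against 3.27 in the control, and Ucp3 had 3.27, 2.76, 2.71 and 3.08, against 3.47 in the control. Both were lower on all 4 arrays and lowest in Apc580D. Their levels ran nearly parallel over all 5 arrays, and whether the 2 probes read separate transcripts was not tested.

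Markers of other stomach and stromal cells gave these summed levels, again the log2 of a sum of unlogged levels. Chief cell markers were at 2.00 to 4.09 on the tumour-derived arrays, against 6.41 in the control, pit cell markers at 5.16 to 6.99 against 7.58, and neck cell markers at 1.73 to 3.74 against 3.997. Fibroblast markers, of which 3 of 7 were not well above background on any array, were at −3.32 to −2.07 against −3.68. Leukocyte markers, of which 3 of 6 were well above background on all 5 arrays, were at 3.88 to 4.33 against 3.42. Endothelial markers were at −3.61 to −3.20 against −2.14. Of the 4 endothelial genes, however, 2 were lower and 2 higher in the tumour mean, with a median difference of 0.61. Only 1 of these 4 was well above background on all 5 arrays. The part of these cell types in the respiratory chain levels was not tested.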
